A study of Mus musculus with 12 samples.

Results

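Small leucine-rich proteoglycans are secreted matrix proteins that bind collagen fibrils. The 8 family members described here, Dcn, Bgn, Aspn, Lum, Fmod, Prelp, Omd and Ogn, were taken by gene symbol from the 36400 genes measured in mouse dorsal skin, and all 8 were among the 21890 genes that were tested. RNA was sequenced from 12 female BALB/c mice that were 6 weeks old at the start, with 3 mice in each of 4 groups, and skin was collected on day 30. Control mice received only the solvent, acetone and olive oil. Mice of the DNCB group were sensitized on the shaved back with 1% dinitrochlorobenzene, a contact allergen, and then challenged with 0.5%, which gives a dermatitis used as a model of atopic dermatitis. The scMSC mice had the same DNCB exposure and received 4 doses of 2000000 human umbilical cord mesenchymal stem cells (MSCs) between day 13 and day 25, each given as 100 µL under the dorsal skin. The scivMSC mice had 50 µL of every dose under the skin, and another 50 µL was injected into a tail vein. The backs of all mice were shaved, and no group received an injection without cells, so that the cells and the injection cannot be told apart. The table lists mouse genes, and the part of the reads that came from the human cells was not measured. The samples were whole skin, in which fewer cells of a type and less RNA per cell cannot be told apart.

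These proteins share a row of leucine-rich repeats that folds into a curved surface for binding collagen and growth factors. Decorin (Dcn) and biglycan (Bgn) carry chondroitin or dermatan sulfate chains, and asporin (Aspn) is a close relative without such a chain. Lumican (Lum), fibromodulin (Fmod) and osteomodulin (Omd) can carry keratan sulfate, and Prelp binds heparan sulfate at basement membranes. Osteoglycin (Ogn) belongs to another branch of the family. In the dermis these proteins are made mainly by fibroblasts and limit the width and spacing of collagen fibrils, and soluble biglycan is a ligand of the innate receptors Tlr2 and Tlr4.

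On the GRCm38 build of the deposited table, Dcn (chr10:97479609-97518143) and Lum (chr10:97565128-97572703) were neighbours on the plus strand, 47.0 kb apart. A second cluster held Aspn (chr13:49544443-49567565), Omd (chr13:49582462-49592822) and Ogn (chr13:49608046-49624501), also on the plus strand, with gaps of 14.9 and 15.2 kb. Prelp (chr1:133910304-133921414, minus strand) and Fmod (chr1:134037254-134048277, plus strand) lay 116 kb apart, and Bgn stood alone at chrX:73483602-73495933 on the plus strand. The Aspn, Omd and Ogn genes lie inside the span of Cenpp, a centromere protein gene on the opposite strand. Whether the counting used strand is not given in the sources used here, but in GENCODE M21 the exons of Cenpp share 7 of 2354 exonic bases with Aspn and 0 with Omd and Ogn. Prelp shares 350 of its 3615 exonic bases with the antisense gene Gm15851.

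The RefSeq promoter table for GRCm38.p6 held 6 of the 8 members. The 250 bases before the start of transcription are shown for the 2 genes whose level rose under DNCB by the test given below, Bgn and Aspn, and for Ogn, a gene of the Aspn cluster that did not pass it, as Omd did not. Capitals mark matches, on either strand, to the letters TATAAA of a TATA box, CCAAT of the box of that name, GGGCGG of a GC box, TGANTCA of an AP-1 site or CAGACA of a SMAD element.
Bgn, chrX:73483351-73483600, plus strand: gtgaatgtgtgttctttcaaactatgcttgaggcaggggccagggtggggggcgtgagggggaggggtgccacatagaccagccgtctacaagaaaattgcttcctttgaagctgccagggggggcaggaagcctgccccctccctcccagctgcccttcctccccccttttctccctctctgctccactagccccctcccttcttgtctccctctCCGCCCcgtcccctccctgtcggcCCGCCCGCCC
Aspn, chr13:49544193-49544442, plus strand: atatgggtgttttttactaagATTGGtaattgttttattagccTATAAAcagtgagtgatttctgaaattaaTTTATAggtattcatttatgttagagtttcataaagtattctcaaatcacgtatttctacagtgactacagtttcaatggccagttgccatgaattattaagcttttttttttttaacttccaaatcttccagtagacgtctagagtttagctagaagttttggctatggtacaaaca
Ogn, chr13:49607765-49608014, plus strand: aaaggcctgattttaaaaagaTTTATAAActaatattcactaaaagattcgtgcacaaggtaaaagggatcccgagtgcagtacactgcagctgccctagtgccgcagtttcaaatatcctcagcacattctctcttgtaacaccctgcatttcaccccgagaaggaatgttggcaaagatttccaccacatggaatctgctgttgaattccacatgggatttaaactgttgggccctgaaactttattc
The Bgn stretch was 64.4% G and C and held the GC box letters 3 times, first base 34, 10 and 6 bases before the start, the last 2 overlapping. The Aspn stretch was 30% G and C, with TATAAA letters 207 and 178 bases and CCAAT letters 229 bases before the start. The Ogn stretch, 42.0% G and C, held a pair of overlapping TATAAA matches 229 and 227 bases before the start. Bgn and Aspn, whose transcripts changed in the same directions, thus had no searched motif in common in this window. Over all 32851 promoters of the table, TATAAA occurred in 12.4%, CCAAT in 33.8%, GGGCGG in 32.7%, TGANTCA in 6.75% and CAGACA in 17.1%. Neither TGANTCA nor CAGACA was found in these 250 bases of the 6 members that had an entry.

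Levels are given as FPKM, which scales fragments by transcript length and library size and so allows genes of different length to be compared. Fold changes come from the estimated counts, fitted with edgeR's quasi-likelihood test on all 12 libraries, and are log2 values ± standard error (SE). A gene passed when its p-value, adjusted by Benjamini-Hochberg over the 21890 tested genes, was under 0.05. The libraries held 63877153 to 75134001 estimated counts. Replicates of a group correlated at 0.965 to 0.986. Scaling factors (TMM) were 0.887 to 1.06.

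In control skin Dcn was the most abundant member at 64.8 ± 14.2 FPKM (SD, n = 3), followed by Lum at 44.2 ± 11.6, Ogn at 26.4 ± 10.9, Bgn at 18.4 ± 0.405, Aspn at 12.1 ± 2.97, Prelp at 12.0 ± 2.59, Fmod at 2.71 ± 0.535 and Omd at 1.09 ± 0.356. The ranges of Dcn and Lum, of Lum and Ogn, and of Aspn and Prelp overlapped. In DNCB skin Lum came first at 168 ± 19.8 FPKM, before Bgn at 117 ± 2.57 and Dcn at 109 ± 10.0, and the ranges of Bgn and Dcn overlapped. Aspn followed at 54.3 ± 14.0 FPKM, ahead of Ogn at 30.7 ± 1.36. In both MSC groups the order was led by Dcn, with Lum, Bgn and Ogn next, and every neighbouring pair of members down to Prelp had overlapping ranges there. Summed over the 8 members, the level was 147 to 227 FPKM in control skin, 491 to 522 in the DNCB group, 129 to 310 with scMSC and 65.7 to 293 with scivMSC.

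**Figure D1:**
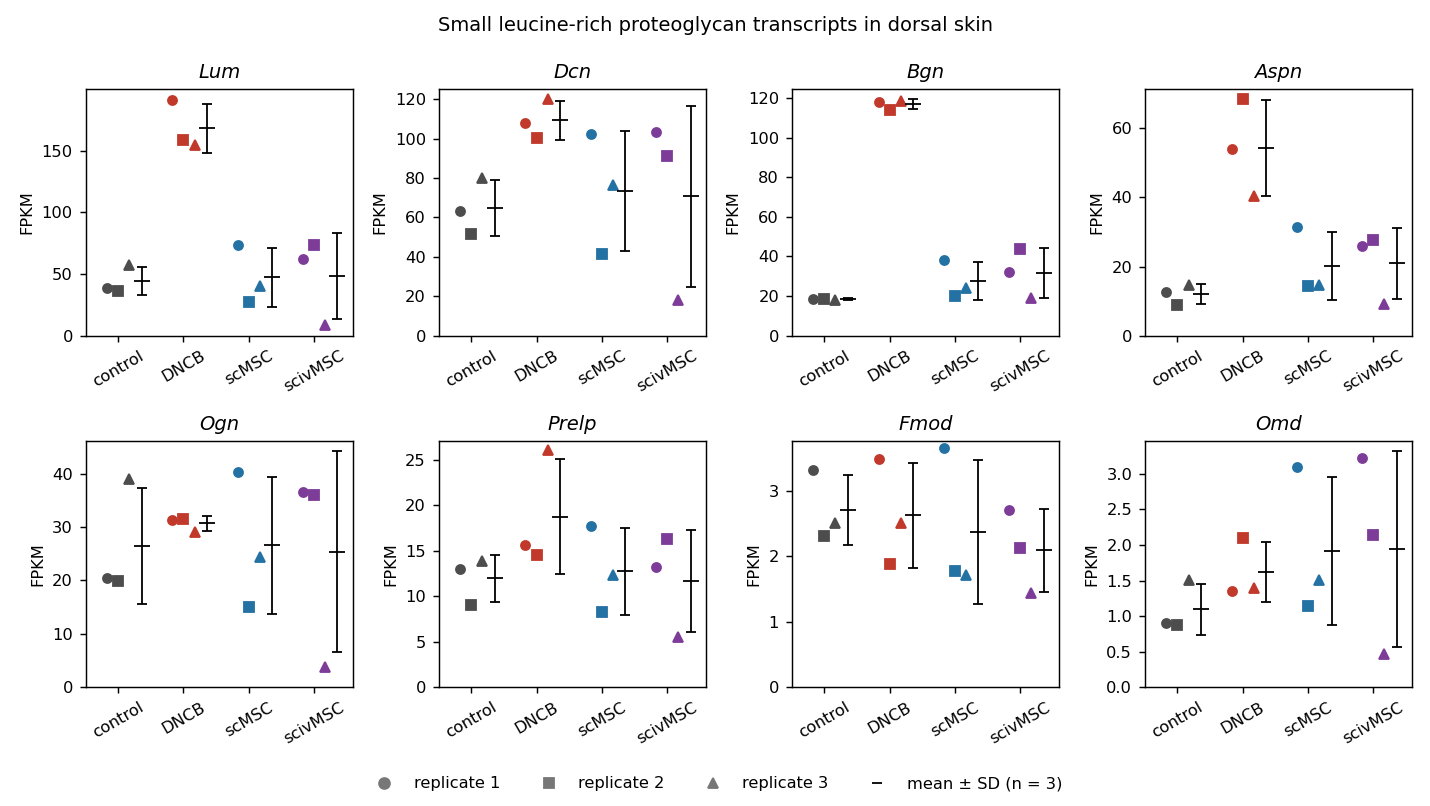
FPKM of the 8 members (y axis, a scale of its own in each panel, from 0) in the 4 groups (x axis). Symbols are the 3 mice of a group, and the bar at the right of each group is mean ± SD. Lum, Bgn and Aspn are higher in all 3 DNCB libraries than in any other library, whereas Fmod, Omd and Ogn overlap between groups, and scivMSC replicate 3 is the lowest scivMSC library for each gene.

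DNCB against control skin addressed how the dermatitis altered these transcripts. Biglycan and asporin rose, by 5.59-fold and 3.97-fold, and lumican was 3.37-fold higher with an adjusted p just over the threshold. The other 5 members did not pass the test. The count of 2 members that rose out of 8 stands beside 12.9% of all tested genes that rose in this comparison. The median log2 fold change was 0.52 over the 8 members and 0.02 over all genes tested. In FPKM, all 3 DNCB libraries exceeded all 3 control libraries for 5 members, Dcn, Bgn, Aspn, Lum and Prelp, which holds for 31.7% of all tested genes. FPKM leaves out the TMM factors, which were 0.887 to 0.961 in control and 1.03 to 1.04 in DNCB libraries. It therefore favours DNCB, and a narrow separation such as that of Prelp can depend on the scaling.

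Bgn was at 18.4, 18.7 and 17.9 FPKM in control replicates 1 to 3 and at 118, 114 and 118 FPKM in DNCB replicates 1 to 3. Neither group varied much, and the groups were far apart. The log2 fold change was 2.48 ± 0.28 with an adjusted p of 0.000519, and Bgn passed in each of the 12 fits without a library and in each of the 10 other alternatives. Aspn was at 12.6, 8.92 and 14.8 FPKM in control and at 54.1, 68.4 and 40.4 FPKM in DNCB skin, so that the lowest DNCB library was well over the highest control library. Its log2 fold change was 1.99 ± 0.41, with an adjusted p of 0.00578 and a pass in all of these alternatives. Lum was at 39.0, 36.1 and 57.5 FPKM in control and at 191, 159 and 155 FPKM in DNCB skin, again without overlap. Its log2 fold change of 1.75 ± 0.59 had an adjusted p of 0.0506. Lum passed without scMSC replicate 1 (adjusted p 0.0490), without scivMSC replicate 2 (0.0499) and without scivMSC replicate 3 (0.00269), and DESeq2 gave 0.00762. In all it passed in 3 of the 12 fits without a library and in 6 of the 10 other alternatives.

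Dcn was at 63.1, 51.6 and 79.8 FPKM in control and at 108, 100.1 and 120.0 FPKM in DNCB skin. These groups did not overlap either, but the log2 fold change of 0.58 ± 0.48 had an adjusted p of 0.429 and a 95% interval from -0.49 to 1.64. When only the 6 control and DNCB libraries were fitted, Dcn passed at 0.55 with an adjusted p of 0.0434. Prelp ran from 9.05 to 13.9 FPKM in control and from 14.6 to 26.1 FPKM in DNCB skin, with a log2 fold change of 0.46 ± 0.37 and an adjusted p of 0.402. Ogn was at 20.4, 19.8 and 39.0 FPKM in control and at 31.3, 31.6 and 29.1 FPKM in DNCB skin, where the 3 DNCB values lay inside the control range. Its log2 fold change was 0.05 ± 0.62, and the 95% interval, from -1.31 to 1.41, is wide. Fmod stayed between 1.89 and 3.48 FPKM over these 6 libraries, with a log2 fold change of -0.24 ± 0.34. Omd was the least abundant member, at 0.900, 0.879 and 1.51 FPKM in control and 1.36, 2.10 and 1.39 FPKM in DNCB skin, with a log2 fold change of 0.39 ± 0.57.

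In the cluster of Aspn, Omd and Ogn, Aspn passed, while Omd and Ogn, whose 95% intervals reached 1.64 and 1.41, did not. The difference between these genes was not tested. Neither Dcn and Lum nor Prelp and Fmod passed.

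The comparison of scMSC with DNCB skin addressed cells given under the skin. Biglycan fell 4.22-fold and asporin 2.68-fold, and lumican was 3.55-fold lower without passing. That is 2 members lower out of 8, beside 5.77% of all tested genes. In FPKM all 3 scMSC libraries were below all 3 DNCB libraries for 3 members, Bgn, Aspn and Lum, as for 17.1% of all tested genes. The members' median log2 fold change was -0.56 and that of all genes 0.02.

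Bgn was at 38.3, 20.0 and 23.9 FPKM in scMSC replicates 1 to 3. All of these lay far under the DNCB values, with a log2 fold change of -2.08 ± 0.27, an adjusted p of 0.00201 and a pass in all 12 fits without a library and all 10 other alternatives. Aspn was at 31.4, 14.4 and 14.7 FPKM, with replicate 1 apart from the other two. Its log2 fold change was -1.42 ± 0.41 with an adjusted p of 0.0427. This pass was lost without control replicate 1, 2 or 3 (adjusted p 0.0612, 0.0540 and 0.0569), DNCB replicate 1, 2 or 3 (0.0986, 0.139 and 0.0550), scMSC replicate 2 or 3 (0.149 and 0.137) or scivMSC replicate 1 (0.0542), at fold changes from -1.21 to -1.85 over the 12 fits. Lum was at 73.7, 27.3 and 40.5 FPKM, with a log2 fold change of -1.83 ± 0.59 and an adjusted p of 0.0693. Without scivMSC replicate 3 its adjusted p was 0.00430, by DESeq2 it was 0.00732, and with only the 6 libraries compared it was 0.0179.

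The remaining members did not pass. Dcn was at 102, 41.5 and 76.5 FPKM in scMSC skin, with the highest library inside the DNCB range, and its log2 fold change was -0.57 ± 0.48. Ogn was at 40.3, 15.0 and 24.4 FPKM, on both sides of the DNCB values, with a log2 fold change of -0.20 ± 0.62. Prelp ran from 8.22 to 17.7, Fmod from 1.71 to 3.65 and Omd from 1.14 to 3.09 FPKM, each overlapping DNCB. In these genes replicate 1 had the highest scMSC value, as it had for the other members.

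The comparison of scivMSC with DNCB skin addressed cells given by both routes. Biglycan was the only member that fell, 3.70-fold, against 3.6% of all tested genes that fell. All 3 scivMSC libraries were below all 3 DNCB libraries in FPKM for Bgn, Aspn and Lum, as for 16.3% of all tested genes. The median log2 fold change of the members was -0.67 and that of all genes 0.02.

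Bgn was at 32.4, 43.9 and 18.9 FPKM in scivMSC replicates 1 to 3, with a log2 fold change of -1.89 ± 0.27 and an adjusted p of 0.00480, and it passed in all 12 fits without a library and all 10 other alternatives. Aspn was at 26.0, 27.8 and 9.06 FPKM, with a log2 fold change of -1.39 ± 0.40 and an adjusted p of 0.0614. It passed without scMSC replicate 1 (0.0421) and by DESeq2 (0.00678). Lum was at 62.3, 73.8 and 8.50 FPKM. Its log2 fold change of -1.83 ± 0.59 had an adjusted p of 0.0871, and 0.0629 without scivMSC replicate 3, where the value was -1.32. DESeq2 passed it at 0.00926. Dcn was at 103, 91.1 and 18.1 FPKM and Ogn at 36.5, 35.9 and 3.75 FPKM. In both genes 2 libraries were near or over the DNCB values and the remaining one was several times lower. Their log2 fold changes were -0.65 ± 0.48 and -0.30 ± 0.62, and neither passed. Prelp ran from 5.47 to 16.3, Fmod from 1.44 to 2.70 and Omd from 0.472 to 3.22 FPKM in scivMSC skin, and none of them passed.

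**Figure D2:**
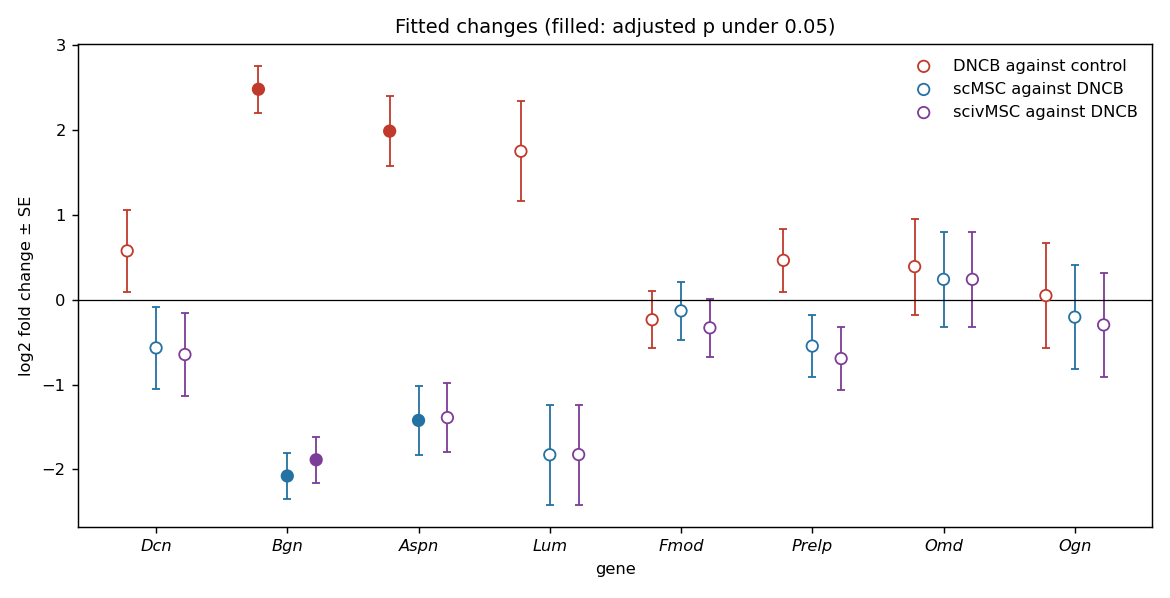
Fitted log2 fold change ± SE (y axis) of each member (x axis) in the 3 comparisons that involve DNCB skin. Filled points passed at an adjusted p under 0.05, which Bgn did in all 3 comparisons, at 2.48, -2.08 and -1.89, Aspn in 2 of them, and no other member in any.

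These 3 comparisons share the DNCB libraries, so that a gene that is high in DNCB gives opposite signs in them by construction. Against control, which is free of that, 0 of the 8 members passed in scMSC skin, beside 18.5% of all tested genes, and 0 passed in scivMSC skin, beside 13.2%. At an unadjusted p under 0.05 the counts were 0 and 1 by edgeR, and at an adjusted p DESeq2 and limma gave 0 in both comparisons. Bgn was at 27.4 ± 9.64 FPKM in scMSC and 31.7 ± 12.5 in scivMSC skin, against 18.4 ± 0.405 in control. The log2 fold change was 0.40 ± 0.26 in scMSC skin, with a 95% interval from -0.17 to 0.98. In scivMSC skin it was 0.60 ± 0.26, with an interval from 0.02 to 1.17 and an adjusted p of 0.166. Without scivMSC replicate 3 it was 0.81 and passed with an adjusted p of 0.0379. Aspn was at 20.1 ± 9.72 and 20.9 ± 10.3 FPKM against 12.1 ± 2.97, with log2 fold changes of 0.57 ± 0.40 and 0.60 ± 0.40. Lum was at 47.2 ± 23.9 and 48.2 ± 34.8 FPKM against 44.2 ± 11.6, with log2 fold changes of -0.08 ± 0.57 and -0.07 ± 0.57. For Lum the 95% intervals ran from -1.34 to 1.19 in both groups, so that changes of more than 2-fold in either direction lie within them. The log2 fold changes of the other 5 members ran from -0.57 ± 0.34, for Fmod in scivMSC skin, to 0.63 ± 0.57, for Omd in both groups.

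Between scMSC and scivMSC skin 0 of the 8 members passed, beside 0.00457% of all tested genes. The count at an unadjusted p under 0.05 was also 0 by edgeR, and at an adjusted p DESeq2 and limma gave 0. The log2 fold changes ran from -0.19 ± 0.26 for Bgn to 0.20 ± 0.34 for Fmod. The 95% interval for Bgn was -0.77 to 0.38, and for Ogn it was -1.26 to 1.45, so that the routes were not shown to act alike.

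Dividing each member by Dcn compares members inside a library. The Bgn to Dcn ratio of FPKM was 0.225 to 0.363 in control skin and 0.987 to 1.14 in DNCB skin, against 0.313 to 0.483 with scMSC and 0.314 to 1.04 with scivMSC. Biglycan transcripts were thus about as abundant as decorin transcripts in DNCB skin and well under them in control skin. On the log2 scale the mean ratio was -1.80 ± 0.35 for control and 0.10 ± 0.11 for DNCB (SD, n = 3), and it was -1.38 ± 0.31 for scMSC and -0.89 ± 0.88 for scivMSC. The difference of 1.90 between DNCB and control and that of -1.48 between scMSC and DNCB each had an exact two-sided permutation p of 0.10, the smallest that 3 against 3 allows. It was 0.24 after adjustment over the 6 pairs of groups. Between scivMSC and DNCB the groups overlapped, with a difference of -0.99 and an exact permutation p of 0.20. The overlap came from scivMSC replicate 3, where Bgn and Dcn were both low and the ratio was 1.04.

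The Lum to Dcn ratio separated DNCB from all other libraries. It was 1.29 to 1.77 in DNCB skin, 0.618 to 0.721 in control, 0.529 to 0.721 in scMSC and 0.469 to 0.810 in scivMSC skin. The Aspn to Dcn ratio was 0.337 to 0.683 in DNCB skin and 0.173 to 0.200 in control skin, and it overlapped DNCB in both MSC groups. The Ogn to Dcn ratio was 0.243 to 0.315 in DNCB skin, below all control libraries at 0.323 to 0.488. These 3 ratios are given as a description.

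**Figure D3:**
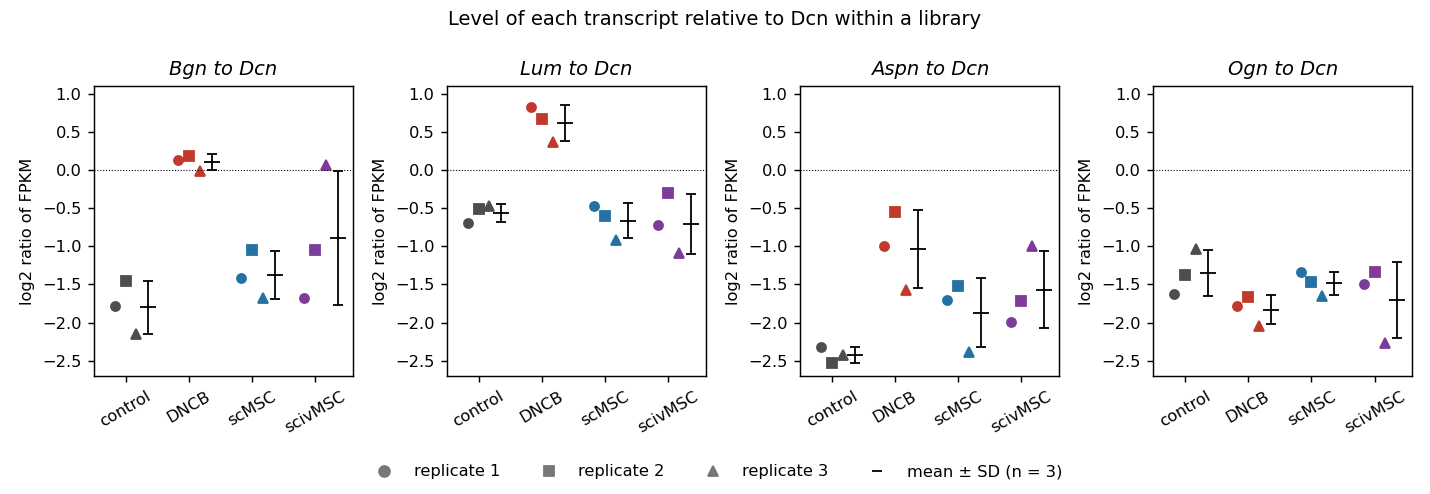
Log2 ratio of Bgn, Lum, Aspn and Ogn to Dcn in FPKM (y axis) in each library of the 4 groups (x axis). Symbols are mice, bars are mean ± SD, and the dotted line marks equal levels. In DNCB skin Lum is above Dcn in all 3 libraries and Bgn lies near the line, from 0.987 to 1.14 as a ratio, and scivMSC replicate 3 departs from its group in the Bgn ratio.

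Markers of several cell types also differed between the groups. Of 12 fibroblast markers, 7 rose in DNCB against control, and 6 fell in scMSC and 3 in scivMSC against DNCB. Their median log2 fold change in DNCB against control was 0.97. Pdgfra was at 5.05 ± 2.21 FPKM in control and 18.7 ± 4.85 in DNCB skin, and it did not pass in scMSC against DNCB (adjusted p 0.0993). The sum of the 12 fibroblast markers was 315 to 439 FPKM in control skin, 497 to 558 in the DNCB group, 195 to 416 with scMSC and 97.4 to 396 with scivMSC, and none was at 0 throughout. In scivMSC replicate 3 this sum was 97.4, against 396 and 384 in the other two, and the sum of the 8 members was 65.7 FPKM. Skeletal muscle markers summed to 14346 to 21172 FPKM in control skin, 3639 to 5463 in the DNCB group, 3879 to 8276 with scMSC and 4284 to 10176 with scivMSC, and 5 of 6 fell in DNCB against control. Hair shaft markers summed to 3.25 to 275 FPKM in control, 275 to 857 in DNCB, 2243 to 5544 in scivMSC and 5993 to 16945 in scMSC skin, with the highest sum in scMSC replicate 2, the scMSC library with the fewest member transcripts. In scivMSC replicate 3, which had the fewest of all libraries, the hair shaft sum was 2987 FPKM. That lay between 2243 in scivMSC replicate 2 and 5544 in scivMSC replicate 1. Its skeletal muscle sum of 10176 FPKM was the highest of the DNCB-exposed libraries, against 5787 and 4284 in scivMSC replicates 1 and 2. The part of these markers in the results was not tested. Of the other 12 lists of cell type markers, members that rose in DNCB against control were 8 of 8 for myofibroblasts, 5 of 5 for neutrophils, 4 of 4 for stress keratinocytes, 4 of 6 for keratinocytes, 3 of 6 for endothelium, 2 of 5 for mast cells, 1 of 5 tested for T cells, 1 of 3 tested for tendon and cartilage and 0 of 5 for macrophages, and those that fell were 2 of 6 for pericytes and smooth muscle, 2 of 5 for adipocytes, 1 of 4 for Schwann cells and 1 of 3 for tendon and cartilage. Of the hair shaft markers, 1 of 6 rose. Over all tested genes, 12.9% rose in this comparison, and 5541 of the 21890 passed in either direction. These shares also stand beside the counts of the partner lists below. Without 1 library the count that rose ran from 0 to 5 for endothelium and for mast cells, both 5 without scivMSC replicate 3, from 3 to 7 for fibroblasts, lowest without control replicate 1, and from 0 to 6 for the hair shaft, highest without control replicate 2.

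Against DNCB, the markers that fell in scMSC skin were 5 of 5 for neutrophils, 5 of 8 for myofibroblasts, 4 of 6 for endothelium, 3 of 6 for keratinocytes, 3 of 4 for stress keratinocytes and 1 each for T cells, tendon and cartilage, and pericytes and smooth muscle. Those that rose were 3 of 6 for the hair shaft and 1 each for mast cells and for pericytes and smooth muscle. In scivMSC skin 5 of 5 neutrophil, 5 of 8 myofibroblast, 2 of 6 keratinocyte and 1 each of the endothelial, pericyte and smooth muscle, tendon and cartilage, and adipocyte markers fell, and 2 of 6 hair shaft markers and 1 adipocyte marker rose. No other marker of these lists passed in these comparisons. Over all tested genes, 5.77% fell in scMSC and 3.6% in scivMSC skin, and 2786 and 1787 of the 21890 passed in either direction. The counts that fell in scMSC skin ran from 2 to 7 for fibroblasts, 3 to 6 for myofibroblasts and 0 to 4 for endothelium without 1 library, and scMSC replicate 2 was among the libraries whose absence gave the lowest count of each. The hair shaft count that rose ran from 2 to 6 in scMSC skin, highest without control replicate 2 or 3, and from 0 to 5 in scivMSC skin, highest without control replicate 2. In scivMSC skin the myofibroblast count ran from 2 to 6, at 2 without any one of the DNCB libraries, scivMSC replicate 1 or scivMSC replicate 3. The part of these cell types in the changes of Bgn and Aspn was not tested.

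Among 10 more distant leucine-rich relatives, 9 were tested and Epyc, a neighbour of Dcn and Lum, was too low. Podnl1, a podocan-like protein, rose in DNCB skin by 2.62 ± 0.62 and fell in scMSC skin by 2.50 ± 0.62. Optc, which lies 3.13 kb from Prelp and was at 0.667 ± 0.164 FPKM in control skin, fell by 3.28 ± 1.09 in DNCB skin. Podn, whose product podocan restrains smooth muscle growth, fell in scivMSC skin against both DNCB and control, by 0.98 ± 0.26 and 0.97 ± 0.26. Kera, a corneal keratan sulfate protein next to Lum, ran from 1.06 to 1.90 FPKM in DNCB and 0.247 to 0.400 in control skin, with a log2 fold change of 2.07 ± 0.74 and an adjusted p of 0.0645. Of the 12 fits without a library, Podnl1 passed in 12 for DNCB and 8 for scMSC, Optc in 3, and Podn in 4 against DNCB and 7 against control.

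Collagens and other fibril partners form the fibrils that these proteins coat. Of 23 such genes, 16 rose and 0 fell in DNCB against control, with a median log2 fold change of 2.06. Col12a1, a collagen on the fibril surface, rose from 1.36 ± 0.32 to 44.8 ± 4.28 FPKM, a log2 fold change of 4.87 ± 0.35. Col1a1 and Col3a1, chains of the main dermal collagens, rose by 3.53 ± 0.66 and 3.16 ± 0.65. In scMSC against DNCB skin 13 of 23 fell and 0 rose, at a median of -1.72, with Col12a1 at -3.50 ± 0.33, Col1a1 at -2.64 ± 0.63 and Col3a1 at -2.51 ± 0.63. In scivMSC against DNCB skin 8 fell and 0 rose, at a median of -1.47, led by Col12a1 at -3.38 ± 0.33, Col5a1 at -2.06 ± 0.51 and Col5a2 at -1.96 ± 0.53. Against control, 1 of 23, Col12a1, was higher in each MSC group. Of all tested genes, 18.5% in scMSC and 13.2% in scivMSC skin passed against control in either direction. These 2 shares stand beside this count and the later partner counts against control, and shares by direction are not given. In scivMSC skin that count was 7 without scivMSC replicate 3 and 0 without control replicate 1, and in scMSC skin it was 2 without scMSC replicate 3 and 0 without control replicate 1 or 2 or scMSC replicate 2. Leaving out 1 library at a time gave 15 to 17, 4 to 15 and 2 to 12 genes in the 3 comparisons that involve DNCB. The lowest counts against DNCB came without scMSC replicate 2 or 3 in the scMSC comparison and without scivMSC replicate 1 or either of DNCB replicates 1 and 2 in the scivMSC comparison.

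Enzymes that fold, cut and crosslink collagen gave 10 of 20 tested genes that rose and 0 that fell in DNCB skin, with a median of 1.32. Lox and Loxl2, lysyl oxidases, rose by 2.90 ± 0.48 and 2.57 ± 0.41, and Serpinh1, the collagen chaperone, by 2.61 ± 0.38. In scMSC and scivMSC against DNCB skin 11 and 7 fell and 0 rose, at medians of -1.09 and -0.998, with Fkbp10, a collagen prolyl isomerase, at -2.13 ± 0.34 and -1.93 ± 0.34 and Loxl2 at -1.87 ± 0.40 and -1.79 ± 0.40. Lox fell by 1.76 ± 0.46 in scMSC and Loxl1 by 1.72 ± 0.45 in scivMSC skin. Over the fits without 1 library these counts were 7 to 15, 5 to 14 and 3 to 8, lowest without control replicate 2, without scMSC replicate 2, and without scivMSC replicate 1 or either of DNCB replicates 1 and 2. Against control, 3 of 20 were higher and 0 lower in each MSC group, beside the 18.5% and 13.2% of all tested genes in either direction. Serpinh1 was higher by 1.26 ± 0.37 in scMSC and 1.57 ± 0.37 in scivMSC skin, and Plod2 by 1.51 ± 0.34 and 1.43 ± 0.34.

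The enzymes that build chondroitin and dermatan sulfate, the chains of decorin and biglycan, changed in 11 of 25 tested genes, with 9 higher and 2 lower in DNCB skin at a median of 0.64. Chain synthesis enzymes were among those that rose, Csgalnact1 by 1.74 ± 0.19 and Chsy1 by 1.63 ± 0.17, as was the sulfotransferase Chst11 by 1.68 ± 0.25, while B3gat3, which completes the linker, fell by 0.45 ± 0.14. In scMSC and in scivMSC against DNCB skin 5 fell and 0 rose. Chsy1 fell by 1.00 ± 0.16 and 1.06 ± 0.16 and Xylt1, which starts the chain, by 1.02 ± 0.26 and 1.00 ± 0.26, with Chpf at -1.07 ± 0.18 in scMSC and Dsel, a dermatan sulfate epimerase, at -1.25 ± 0.32 in scivMSC skin. Csgalnact1 did not pass against DNCB, with log2 fold changes of 0.19 ± 0.18 in scMSC and -0.44 ± 0.18 in scivMSC skin. It was higher than control in both groups, at 5.59 ± 0.57 and 3.67 ± 0.43 FPKM against 1.32 ± 0.14, beside 5.02 ± 1.18 in DNCB skin. The counts lower than DNCB were 2 to 6 and 1 to 5 without 1 library, and with scivMSC replicate 3 left out 1 was lower in scivMSC skin.

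Keratan sulfate and tyrosine sulfation enzymes, which act on Lum, Fmod and Omd, gave no single direction. Of 12 tested, 5 rose and 2 fell in DNCB skin, at a median of 0.52. The tyrosine sulfotransferases Tpst2 and Tpst1 rose by 0.96 ± 0.30 and 0.76 ± 0.26 and B4galt1 by 0.81 ± 0.16, while the sialyltransferase St3gal3 fell by 1.33 ± 0.25 and the keratan sulfate sulfotransferase Chst1 by 0.85 ± 0.20. In scMSC against DNCB skin 2 fell, B4galt1 by 0.68 ± 0.16 among them, and in scivMSC skin 2 fell and 1, Chst1, rose by 0.79 ± 0.20. None of the 12 passed in scivMSC against DNCB skin without scivMSC replicate 3.

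Of 14 tested proteases known to cleave matrix proteoglycans, 10 rose and 0 fell in DNCB skin, at a median of 1.91. The collagenase Mmp8, made by neutrophils, was at 7.29 ± 0.61 FPKM in DNCB and at most 0.0445 in control skin, with a log2 fold change of 8.10 ± 1.69. Adamts4, an aggrecanase that also cuts biglycan, rose by 4.78 ± 0.73, and Mmp13 by 4.68 ± 0.90. In scMSC skin 8 fell, with Mmp8 at -6.93 ± 1.56, Mmp13 at -5.33 ± 0.93 and Mmp9 at -5.14 ± 0.58. In scivMSC skin 4 fell, with Mmp8 at -6.02 ± 1.48, Mmp9 at -4.15 ± 0.55 and Mmp13 at -3.76 ± 0.86. Bmp1, which removes the propeptide of biglycan and processes procollagen, was at 7.46 ± 0.80 FPKM in control skin, 29.9 ± 0.18 in the DNCB group, 12.9 ± 2.98 with scMSC and 15.4 ± 3.20 with scivMSC, and was higher than control in both MSC groups, by 0.63 ± 0.16 and 0.87 ± 0.16. The protease counts without 1 library were 7 to 11, 5 to 9 and 2 to 5, with the last at 2 without any one of the DNCB libraries, scivMSC replicate 1 or scivMSC replicate 3. Against control, 2 of 14 were higher in scMSC skin and 3 in scivMSC skin, where Adamts4 was higher by 3.17 ± 0.68, and 0 were lower.

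Ligands and receptors that bind these proteoglycans split by gene. Of 24 tested, 13 rose and 5 fell in DNCB skin, at a median of 0.67. Cd14, the co-receptor used by biglycan with Tlr2 and Tlr4, rose by 4.85 ± 0.60, and Tlr4 rose by 2.08 ± 0.68. Ccn4 (also called Wisp1), bound by decorin and biglycan, rose by 3.79 ± 0.54. Myostatin (Mstn), a muscle growth inhibitor held by decorin, fell by 2.74 ± 0.42, beside the lower muscle markers in DNCB skin, and Bmp2 and Bmp4 fell by 2.05 ± 0.39 and 1.56 ± 0.27. In scMSC skin 8 fell, with Cd14 at -5.10 ± 0.61, Ccn4 at -3.47 ± 0.53 and Tlr2 at -2.97 ± 0.28, and 3 rose, Bmp2 by 2.62 ± 0.40, Bmp4 by 1.93 ± 0.28 and Ccn2 by 1.33 ± 0.34. In scivMSC skin 6 fell, with Cd14 at -4.56 ± 0.59, Ccn4 at -3.14 ± 0.52 and Tlr2 at -2.66 ± 0.28, and 2 rose, Bmp2 by 2.06 ± 0.39 and Ccn2 by 1.35 ± 0.34. Tlr2 was at 1.63 to 3.07 FPKM in control skin, 9.11 to 11.4 in the DNCB group, 0.989 to 1.62 with scMSC and 1.24 to 2.12 with scivMSC. In scMSC skin Tlr2 was lower than control, by 0.94 ± 0.26. Neutrophil markers summed to 2454 to 3421 FPKM in DNCB and to at most 207 in any other library. Their part in the Tlr2 values was not tested. The 13 higher in DNCB skin became 7 without control replicate 1 or 2.

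Other extracellular proteoglycans and hyaluronan enzymes gave 8 of 16 tested that rose and 0 that fell in DNCB skin, at a median of 2.21. Prg4 (lubricin) rose by 5.02 ± 0.51, Srgn, the proteoglycan of leukocyte granules, by 4.18 ± 0.37 and the hyaluronan synthase Has3 by 2.87 ± 0.51. In scMSC skin Prg4, Srgn and Has2 fell, with log2 fold changes of -4.52 ± 0.50, -3.95 ± 0.36 and -2.78 ± 0.42. In scivMSC skin these 3 fell as well, at -3.28 ± 0.47, -3.89 ± 0.36 and -2.45 ± 0.42, and Spock2 rose by 1.34 ± 0.24. Both MSC groups remained above control for Cemip, which degrades hyaluronan, by 1.86 ± 0.32 and 2.15 ± 0.32.

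**Figure D4:**
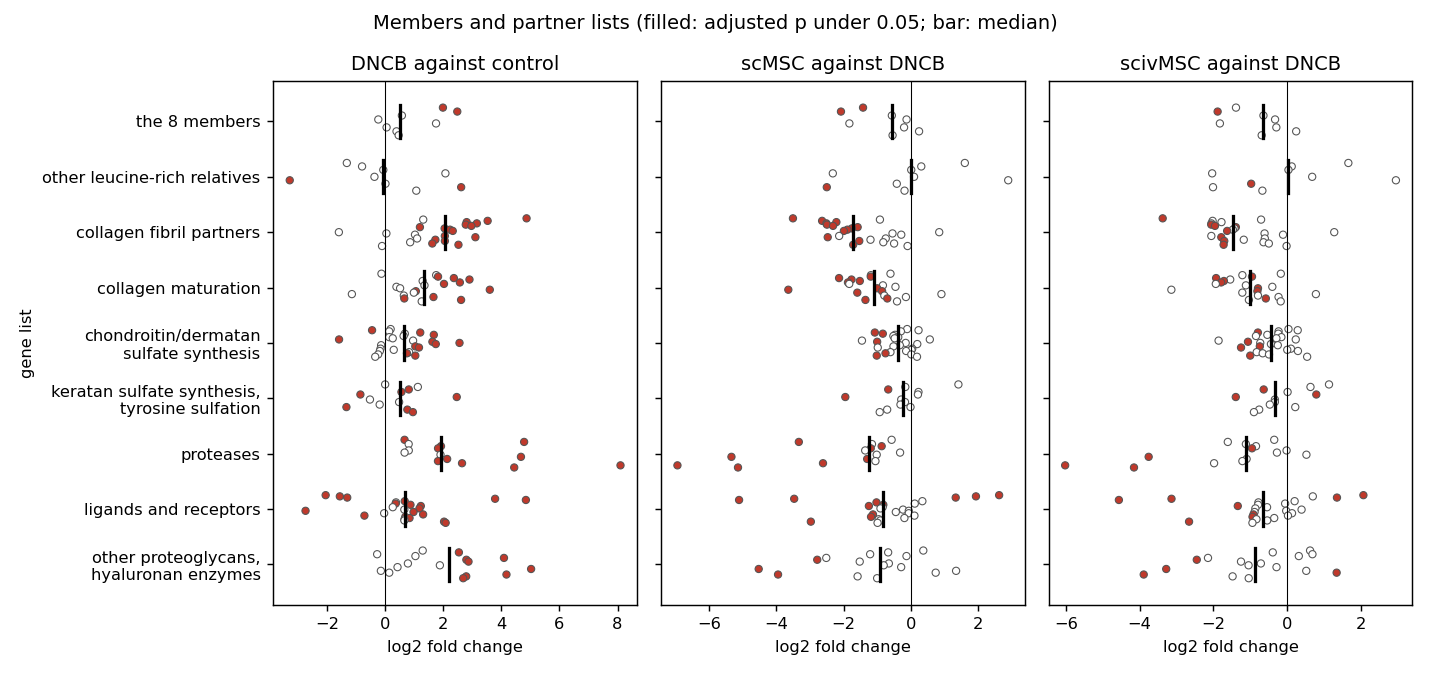
Log2 fold change (x axis) of each tested gene of the 8 members and of the partner lists (y axis) in the 3 comparisons that involve DNCB skin. Filled points passed at an adjusted p under 0.05 and bars are medians, which for the collagen fibril partners are 2.06, -1.72 and -1.47 and for the members 0.52, -0.56 and -0.67.

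The genes most like each member over the 12 libraries were found among 14385 other genes by the correlation of log2(FPKM + 0.1), given as a description. The points share the group differences and, in scivMSC replicate 3, a library low in stromal genes. Bgn was closest to C1qtnf6 (r = 0.99), Fkbp10 (0.99) and Sdcbp (0.99), and Aspn to Thbs2 (0.99), Col1a2 (0.98) and Pxdn (0.98). Dcn was closest to 3 genes of the first complement component, C1ra (0.99), C1s1 (0.98) and C1s2 (0.98), of which C1s1 and C1s2 are near-identical copies that can share reads. Lum was closest to Shc2 (0.98), Cd248 (0.98) and Col6a6 (0.98), Ogn to Gpc3 (0.99), Tmeff2 (0.98) and Pamr1 (0.97), and Omd to Dpep1 (0.97), Abca6 (0.95) and Htra3 (0.93). Prelp was closest to Tspan4 (0.95), Man1a (0.94) and Arfgap3 (0.94). Fmod had the least similar neighbours, Dhrs4 (0.87), Dusp1 (0.86) and Ttc28 (0.82). Among the members themselves r ran from 0.25, for Bgn and Fmod, to 0.94, for Dcn and Ogn.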

How the data were processed

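Whole dorsal skin RNA of 12 mice was sequenced by the authors. The authors deposited 1 table of FPKM, which they scaled by transcript length and depth. Beside it the authors deposited estimated counts as whole numbers, without scaling across libraries. The submitters' processing notes list Bowtie 0.12.2, HISAT2 2.0 and StringTie 1.3.0 without roles and name another mouse build, but all 8 members lie at their GENCODE M21 positions on GRCm38. Of estimated counts from 1 to 18, 39.9% were multiples of 4, so that counting error may be larger than the counts imply, which was not tested. No value column was without a sample.

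Every gene whose mean reached 0.1 FPKM entered the test of edgeR 4.0.16 (quasi-likelihood, TMM, 1 model of 4 groups) in R 4.3.3, with Benjamini-Hochberg adjustment over the 21890 genes. The common biological coefficient of variation was 0.420. SE was derived from the F statistic. In data simulated for DNCB against control over 21890 genes, 10 of 100 genes changed 2-fold and 95 of 100 changed 4-fold were recovered. The simulated spread was set smaller than that of the data, and genes with few counts were left unchanged, which both favour recovery. Far fewer genes were changed than the 5541 that passed in the data, which makes the adjustment stricter and lowers recovery. Recovery in the data may therefore be lower or higher. Limma 3.58.1, DESeq2 1.42.0, other filters, pseudocounts, scaling, thresholds, a replicate block and leaving out each library were alternatives. Partner genes were named as the 3 largest passing changes per list and direction with a mean of at least 1 FPKM. The leucine-rich relatives were named without that minimum, and Kera was given although it did not pass. Pdgfra was chosen in addition after its values were seen. Bmp1 met the rule only against control, and its other values were likewise added after they were seen. The Bgn to Dcn ratio was tested by exact permutation. Python 3.11.15, pandas 2.3.3, numpy 2.4.6, scipy 1.17.1 and matplotlib 3.10.9 were used.

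The members, the 8 partner lists and the 15 marker lists were chosen with earlier results of these data known. The study's methods select genes at a fold change and an unadjusted p, and adjusted p-values were used here instead. Sequences are from RefSeq.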

Additional observations from a re-analysis of the deposited data

How the results depend on the processing

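With 3 mice a group, only Bgn in the comparisons with DNCB and Aspn in DNCB against control kept their pass in every alternative run. The counts moved as follows. In DNCB against control, 4 members passed rather than 2 when only the 6 libraries compared were fitted. Lum alone was added with library size alone, at a mean FPKM of at least 1 and with counts divided by 4. It was also added by limma on log2(FPKM + 1), by DESeq2 and in 3 of the 12 fits without a library. In scMSC against DNCB, Aspn missed and 1 passed rather than 2 with library size alone and with no filter on low values. The same held by limma on log2(FPKM + 0.01). Lum was added there by DESeq2 and with only the 6 libraries compared, and leaving out 1 library gave 1 to 3. In scivMSC against DNCB, 2 passed rather than 1 at a mean FPKM of at least 1 and with counts divided by 4, where Aspn was added, 3 passed by DESeq2, and leaving out 1 library gave 1 to 2. In scivMSC against control that range was 0 to 1, with 1 without scivMSC replicate 3. The reported counts against control and between routes were otherwise 0 throughout. Of 480 values from the alternatives that kept all libraries or only those compared, 433 kept direction and side of the threshold, 31 changed sign, 13 came to pass and 3 were lost. Of 576 values without 1 library, 514, 47, 6 and 9 did so. The lowest adjusted p among values that changed sign was 0.467. The causes were not tested.

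Replicate numbers were not given as pairing the mice. Deviations of libraries with the same number correlated at -0.318 to 0.237, over 0.1 in 2 of 18 pairs, and 1 of 12 libraries was closest to its own number. With the replicate number as a block no call on a member changed. The genes that passed were 4926 rather than 5541 in DNCB against control, 2159 rather than 2786 in scMSC and 1179 rather than 1787 in scivMSC against DNCB. Under the block the sign turned for Ogn in DNCB against control (-0.00376), Dcn in scMSC against control (-0.0388), and Lum (0.0642) and Omd (0.0707) in scMSC against scivMSC.

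Of all genes, DESeq2 passed 3215 in scivMSC against DNCB and 138 between routes, where edgeR passed 1. Without scivMSC replicate 3, 789 passed in scivMSC against DNCB. With only the 6 libraries compared, 2131 passed in scMSC and 1103 in scivMSC against control, rather than 4049 and 2899, and 3 between routes. Library size alone raised the median log2 fold change of all genes by 0.18, 0.16 and 0.18 in the DNCB, scMSC and scivMSC comparisons with control. There it turned the sign of Lum (0.0935), Prelp (0.0889) and Ogn (0.00894) in scMSC and of Dcn (0.127) and Lum (0.124) in scivMSC skin.

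Other log2 fold changes turned sign as follows, and none of them passed. In scMSC against control, Dcn was at -0.0321 without a filter, -0.0154 at a mean FPKM of at least 1 and -0.0163 by DESeq2. By limma with pseudocounts of 0.1, 0.01 and 1, Lum was there at 0.00247, 0.00229 and 0.00420, and Prelp at 0.0428, 0.0428 and 0.0427. In scivMSC against DNCB, Omd was at -0.0582 and -0.0928 by limma with 0.1 and 0.01. Between routes, limma with the 3 pseudocounts gave 0.00595, 0.00661 and 0.000238 for Aspn, 0.350, 0.353 and 0.321 for Lum, and 0.193, 0.230 and 0.0566 for Omd. DESeq2 gave 0.00724 for Lum and 0.00883 for Omd.

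Leaving out 1 library turned the sign of further values, each given by its lowest and highest log2 fold change over the 12 fits. In DNCB against control, Ogn ran from -0.141 to 0.350. In scMSC against DNCB, Fmod ran from -0.535 to 0.124, Omd from -0.249 to 0.484 and Ogn from -0.600 to 0.0364. In scivMSC against DNCB, Omd ran from -0.326 to 0.703 and Ogn from -0.653 to 0.223. In scMSC against control, Dcn ran from -0.274 to 0.208, Lum from -0.514 to 0.116, Prelp from -0.360 to 0.0670 and Ogn from -0.551 to 0.131. In scivMSC against control, Dcn ran from -0.440 to 0.350, Lum from -0.505 to 0.390, Prelp from -0.528 to 0.0654 and Ogn from -0.604 to 0.232. In scMSC against scivMSC, Dcn ran from -0.396 to 0.449, Bgn from -0.472 to 0.0916, Aspn from -0.459 to 0.206, Lum from -0.520 to 0.428, Fmod from -0.205 to 0.412, Prelp from -0.201 to 0.447, Omd from -0.490 to 0.567 and Ogn from -0.441 to 0.449. The Bgn to Dcn ratio kept the sign of its difference in all 6 pairs of groups, by counts in place of FPKM and without any 1 replicate.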
